A study of Macaca mulatta with 8 samples.

Results

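The regions described here are stretches of open chromatin that lay away from annotated gene starts and were called at all 4 stages of rhesus macaque cortex cells studied. They were chosen by the authors' peak calls: a region was taken when it held a peak of each of E50, E60, E80 and E85 and stayed clear of the 1000 bp on either side of any start of transcription annotated for protein-coding and lncRNA genes. This gave 8429 regions of 72358 with a peak of at least 1 stage. Among the 55607 distal regions, that is those not near a start, they made up 15.2%, and the other 47178 were called at 1 to 3 stages. Since the calls made the choice, the number of stages is a description and not a finding. Below, open throughout means called at these 4 stages. The rule asks that a merged region hold a peak of each stage, and not that those peaks overlap.

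Open chromatin was mapped with the Omni-ATAC form of ATAC-seq, whose Tn5 transposase inserts sequencing adapters where DNA is accessible. The cells were primary cells of cortex tissue at post-conceptional days 50, 60, 80 and 85, frozen, thawed, dissociated and grown on laminin in a medium that favours progenitors and contains FGF2, EGF and BDNF. All 4 stages had this culture in common, and none was an untreated tissue sample. Each stage had 1 culture and 2 technical libraries from it, 8 libraries in all, so stage, culture and animal cannot be told apart, and the depth of single libraries was not used here. Of 12 genes that mark telencephalon identity, 8 had a promoter region called at all 4 stages, as did 13 of 14 radial glia genes, 11 of 12 cell cycle genes and 42.7% of all protein-coding genes. Such calls also covered 9 of 12 astrocyte genes, 6 of 12 neuron genes and 3 of 12 interneuron genes. They covered 2 of 10 oligodendrocyte lineage genes, 2 of 13 mesenchyme and mural cell genes and 0 of 10 endothelium genes. No promoter of the 12 microglia genes was called at any stage.

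In the developing cortex, radial glia line the ventricle and divide to give neurons, intermediate progenitors and later glia. Distal open regions include enhancers, which bind transcription factors and act on genes at a distance, and sites of CTCF, a zinc finger protein that blocks cohesin and so sets the ends of chromatin loops. Promoters of widely used genes are commonly open in every cell, often within CpG islands, whereas enhancers tend to be open in few cell types.

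To show what the chosen regions look like, 3 of them at genes described below are given first, as the central 300 bases of the narrowest such region of each locus. These 3 were picked after their values were seen, and all lay in introns. Capitals mark the matches to the motifs searched: the E-box CAGCTG at MSI2, the E-box CACGTG at NOTCH1, and none at SLC1A3.
MSI2 region, chr16:39237901-39238200, plus strand: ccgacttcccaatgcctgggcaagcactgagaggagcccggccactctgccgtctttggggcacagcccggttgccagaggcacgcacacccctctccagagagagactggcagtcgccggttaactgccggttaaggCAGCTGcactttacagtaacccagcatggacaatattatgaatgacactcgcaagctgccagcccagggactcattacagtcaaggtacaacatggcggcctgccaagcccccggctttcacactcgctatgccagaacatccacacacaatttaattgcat
NOTCH1 region, chr15:1712723-1713022, plus strand: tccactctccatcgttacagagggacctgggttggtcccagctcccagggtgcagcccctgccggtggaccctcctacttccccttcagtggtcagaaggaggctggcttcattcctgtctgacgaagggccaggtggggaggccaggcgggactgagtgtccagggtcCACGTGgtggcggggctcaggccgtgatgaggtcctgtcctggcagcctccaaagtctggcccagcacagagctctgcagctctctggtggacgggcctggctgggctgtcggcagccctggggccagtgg
SLC1A3 region, chr6:36430298-36430597, plus strand: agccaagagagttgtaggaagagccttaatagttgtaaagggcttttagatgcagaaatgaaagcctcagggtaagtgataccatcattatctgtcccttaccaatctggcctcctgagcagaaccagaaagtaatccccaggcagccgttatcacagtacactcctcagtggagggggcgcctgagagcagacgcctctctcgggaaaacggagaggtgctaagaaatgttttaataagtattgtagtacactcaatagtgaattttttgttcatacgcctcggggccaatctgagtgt

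The next lines show 2 intergenic regions with the motif that had the highest odds ratio without strata among motifs in at least 1% of the chosen regions (KLF/SP, CCCCGCCC), then 2 with the one that had the lowest (AP-1, TGACTCA), each named by the protein-coding gene with the nearest start. Capitals mark the match, with 30 bases on either side.
SERTAD4 region, chr1:67741774-67741841, plus strand: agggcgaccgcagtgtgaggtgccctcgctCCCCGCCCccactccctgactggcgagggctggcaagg
MLLT6 region, chr16:49766604-49766671, minus strand: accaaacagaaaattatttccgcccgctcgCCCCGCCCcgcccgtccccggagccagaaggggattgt
PTAR1 region, chr15:85185413-85185479, minus strand: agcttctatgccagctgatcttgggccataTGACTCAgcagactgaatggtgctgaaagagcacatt
IFT27 region, chr10:14784987-14785053, minus strand: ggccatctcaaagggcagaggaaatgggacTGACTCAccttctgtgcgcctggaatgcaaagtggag

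A further set shows the CTCF motif in 3 intergenic regions of at most 300 bp, the width class in which it was most frequent. They were picked after that class was seen. Capitals again mark the match.
LYZL4 region, chr2:98383015-98383086, minus strand: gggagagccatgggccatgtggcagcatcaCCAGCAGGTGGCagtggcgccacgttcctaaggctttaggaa
SP7 region, chr11:52922775-52922846, plus strand: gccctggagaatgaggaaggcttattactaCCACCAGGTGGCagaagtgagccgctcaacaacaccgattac
RRM1 region, chr14:64304423-64304494, minus strand: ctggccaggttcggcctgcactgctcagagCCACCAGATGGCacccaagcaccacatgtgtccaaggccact

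The peak sets of the 4 stages differed in size, and so did the part that the regions open throughout took of them. They were 85.9% of the 9816 distal regions called at E50 and 47.8% of the 17639 at E85. Of the 44148 at E60 they were 19.1%, and of the 43035 at E80 they were 19.6%. The small E50 set therefore fixed most of the membership: 6405 further distal regions were called at E60, E80 and E85 and not at E50. These 6405 are used below as the nearest neighbours of the chosen regions. Whether E50 lacked these regions or its peaks fell under the caller's threshold was not tested. Exactly 1 peak of each stage was present in 7636 of the regions (90.6%), and only 45 held 2 or more peaks at every stage.

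**Figure D1:**
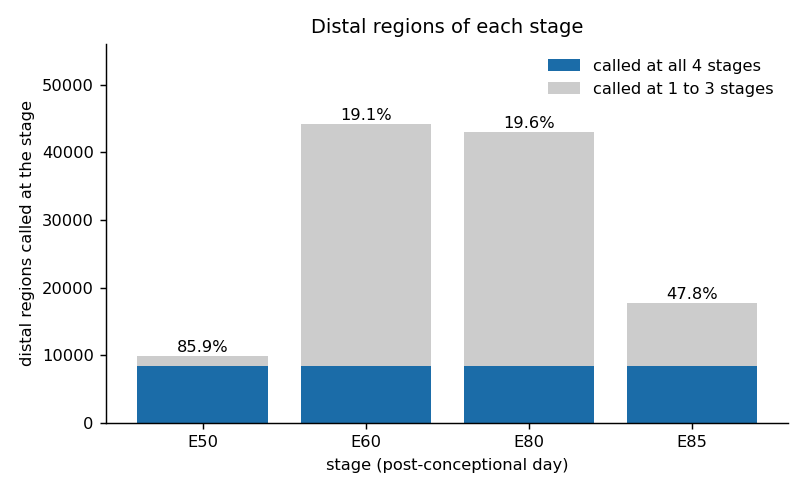
Number of distal regions called at each stage (x axis, post-conceptional day), split into those called at all 4 stages (blue) and at 1 to 3 stages (grey), with the blue share above each bar. The blue part is 8429 regions in every bar and makes up 85.9% at E50 and 19.1% at E60.

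The regions were wide. Their median width was 749 bp (quartiles 527 and 1047), against 486 bp for distal regions of 3 stages, 399 bp for 2 stages and 302 bp for 1 stage. Merging the peaks of more stages can widen a region, so width is close to what the rule used and is given without a test. Strong peaks may also be both wider and easier to call, but peak strength was not measured and this was not tested. Median GC content was 51.8% within 150 bp of the centre, against 48.8% in the other distal regions. The neighbours called at E60, E80 and E85 alone had 51.5%, close to the chosen regions. The centres of the chosen regions lay a median of 22902 bp from the nearest start, and the other distal regions 27265 bp. For the neighbours this distance was 22785 bp, again close to the chosen regions.

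Their place in genes was close to that of other distal regions. Introns held 45.6% (exact 95% interval 44.5 to 46.7), against 48.3% of the other distal regions, and intergenic sequence held 43.1% (41.99 to 44.12) against 43.5%. The odds ratio for intergenic position was 0.98 (95% interval 0.94 to 1.03). Exons were overlapped by 11.3% against 8.12%, an odds ratio of 1.45 (1.34 to 1.56) that fell to 1.00 (0.92 to 1.09) within strata of GC content and width. The share of distal regions open throughout varied by chromosome. It was 20.7% on chromosome 19 (interval 18.7 to 22.8) and 17.9% on chromosome 16 (16.4 to 19.4). It was 11.3% on chromosome 18 (9.64 to 13.2) and 9.95% on chromosome X (8.32 to 11.8). Among regions on the autosomes and X, the odds ratio for lying on X was 0.62 (0.51 to 0.75), and 0.59 (0.48 to 0.73) within strata of GC content and width.

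Regions at the edge of the rule showed that the distance of 1000 bp divides a slope. CpG islands, here whole regions of at least 200 bp with GC content over 50% and an observed to expected CpG ratio over 0.6, made up 86.3% of the regions of all 4 stages with a start inside them. Just within the excluded zone, at 501 to 1000 bp from a start, 34.7% of 271 regions were CpG islands, and just beyond it, at 1001 to 1500 bp, 27.2% of 239 regions were. Over 5000 bp from a start the share was 7.35% of 7030 regions. In all, 771 of the chosen regions (9.15%) were CpG islands, and 5.79% of other distal regions were, an odds ratio of 1.64 (1.51 to 1.78). Within width strata the odds ratio was 0.80 (0.73 to 0.88), so the direction turned, and against distal regions of exactly 3 stages it was 0.99 (0.89 to 1.11). Of the 771, 474 were intergenic, and 70 lay within 1000 bp of the start of another kind of annotated gene. Unannotated promoters among them were not looked for.

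**Figure D2:**
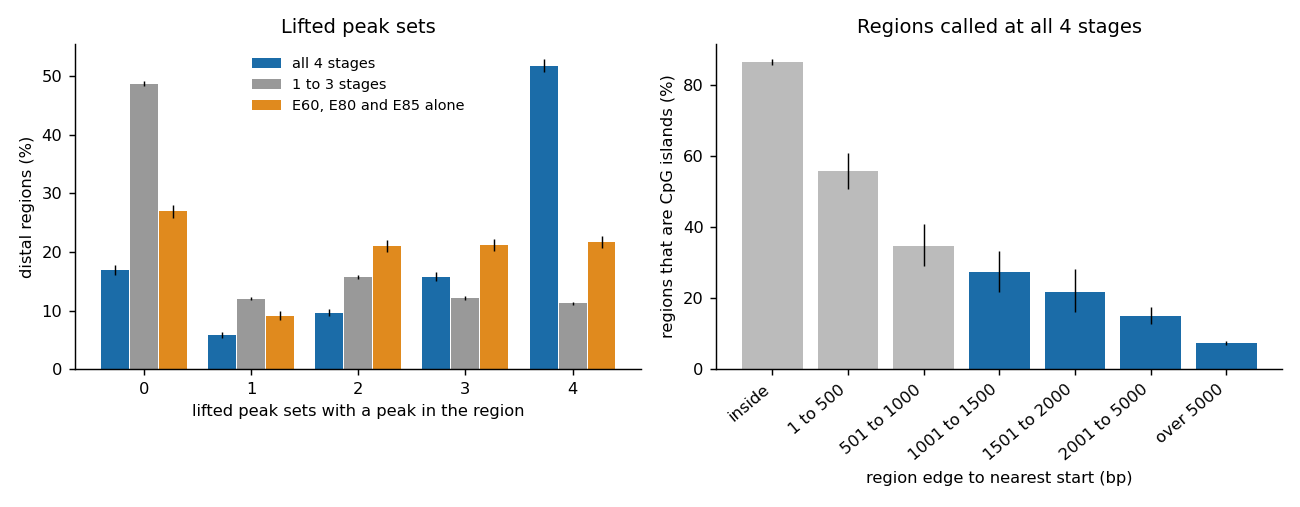
Left, share of distal regions (y axis, %) by the number of lifted peak sets with a peak in them (x axis), for regions of all 4 stages, of 1 to 3 stages, and of E60, E80 and E85 alone (a part of the second group). Right, share of regions called at all 4 stages that are CpG islands (y axis, %) by distance of the region's edge from the nearest start (x axis, bp), grey inside the excluded 1000 bp and blue outside; bars show exact 95% intervals. Of the regions of all 4 stages 51.8% had all 4 lifted sets, and the CpG island share fell from 86.3% to 7.35% with distance.

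The table also names peaks of 4 sets lifted from another genome, coded H14, H16, H22 and H23, which the labels do not define. At least 1 lifted peak was merged into 7000 of the chosen regions (83.0%, interval 82.2 to 83.8), against 51.2% of the other distal regions. Peaks of all 4 lifted sets were present in 51.8% against 11.3%, and in 21.7% of the regions called at E60, E80 and E85 alone. The odds ratio for all 4 sets was 8.47 (8.05 to 8.92), and 2.76 (2.60 to 2.92) within strata of GC content and width. For at least 1 lifted peak it was 4.66 (4.39 to 4.95), and against distal regions of exactly 3 stages 1.87 (1.73 to 2.02). Each set taken alone gave a higher share in the chosen regions, from 53.6% against 12.1% for H16 to 78.5% against 42.6% for H14. Lifted peaks could have widened the merged regions, which was not tested.

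Transcription factor motifs were searched as 32 consensus sequences on both strands in the 300 bp around each region's centre. A match is a string of letters and not evidence of binding. Without strata, 7 motifs were more frequent in the chosen regions than in other distal regions by an interval that excluded 1, 6 were less frequent, and 19 had an interval that held 1. Within strata of GC content and width the numbers were 8, 4 and 20. Reversed motifs, which served as controls, gave 2, 5 and 25 without strata and 2, 2 and 28 within them.

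The CTCF motif was in 251 of the 8429 regions, or 2.98% (interval 2.62 to 3.36), and in 3.35% of the other distal regions (3.19 to 3.52), an odds ratio of 0.89 (0.77 to 1.01). It was more frequent in the neighbours called at E60, E80 and E85 alone, at 7.88% (7.24 to 8.57). The share depended on width. In regions of at most 300 bp it was 16.7% (37 of 221, interval 12.1 to 22.3), and the neighbours had 17.2% (15.1 to 19.5) while all other distal regions had 5.38%. At 501 to 750 bp it was 2.28% (1.72 to 2.97), below the neighbours at 4.07% (3.16 to 5.16), and over 1500 bp it was 0.57% (4 of 704). Within strata of GC content and width the odds ratio against other distal regions was 1.87 (1.60 to 2.17), the opposite direction from the value without strata. Searched over whole regions, matches numbered 52.1 per Mb in the chosen regions, 84.0 in other distal regions and 160.7 in the neighbours.

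**Figure D3:**
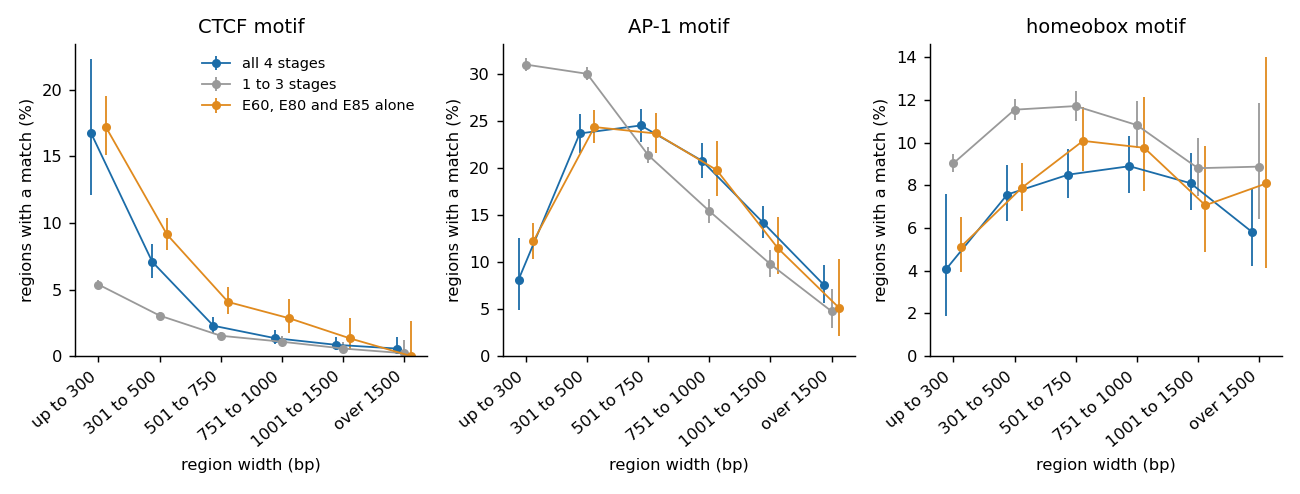
Share of regions with a CTCF, AP-1 or homeobox motif within 150 bp of the centre (y axes, %) by region width (x axes, bp), for distal regions of all 4 stages (blue), of 1 to 3 stages (grey) and of E60, E80 and E85 alone (orange, a part of the grey group); bars show exact 95% intervals. In regions of at most 300 bp, CTCF is at 16.7% in blue, 5.38% in grey and 17.2% in orange. AP-1 is there at 8.14% in blue, 31.0% in grey and 12.2% in orange.

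Regions open throughout that held the CTCF motif had other features than the rest, given here without a test. They had a median width of 448 bp against 759 bp, a median GC content of 58.8% against 51.5%, and AP-1 in 6.37% against 20.1%. Exons were overlapped by 16.3% of them against 11.2%. On chromosomes 1 to 20 and X, 137 of 248 had the motif on the plus strand. Of 227 pairs of neighbours among them, 58 (25.6%, interval 20.0 to 31.7) pointed toward each other, the arrangement common at loop ends, and 59 (26.0%) pointed apart. In the remaining pairs both motifs were on the same strand, 67 on plus and 43 on minus. Loops were not examined. The median gap of the facing pairs was 2861598 bp.

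AP-1, the motif of FOS and JUN dimers that respond to growth factors and stress, was in 19.7% of the regions (interval 18.8 to 20.5) against 26.8% of other distal regions (odds ratio 0.67, 0.63 to 0.71). The neighbours called at E60, E80 and E85 alone had 20.1% (19.1 to 21.1). Against distal regions of exactly 3 stages the odds ratio was 1.03 (0.95 to 1.11). The difference from other distal regions also turned with width: at most 300 bp, 8.14% of the chosen regions had the motif against 31.0%, while at 751 to 1000 bp 20.8% had it against 15.4%. In the same classes the neighbours had 12.2% (10.4 to 14.2) and 19.8%, nearer to the chosen regions. Pooled over strata of GC content and width, the odds ratio was 1.06 (0.99 to 1.13). The reversed AP-1 control had an odds ratio of 0.81 (0.73 to 0.89) without strata and 1.02 (0.91 to 1.14) within them.

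The homeobox motif TAATTA, bound by LHX, DLX, EMX and related factors, was less frequent both ways. It was in 7.98% of the regions (interval 7.41 to 8.58) and 10.51% of other distal regions, with an odds ratio of 0.74 (0.68 to 0.80) without strata and 0.78 (0.71 to 0.86) within strata of GC content and width. Its reversed letters gave 0.73 and 0.79, nearly the same values, and still hold the TAAT core. Against distal regions of exactly 3 stages the odds ratio was 0.96 (0.85 to 1.07), which holds 1. Of the other motifs lower in both ways, GATA had odds ratios of 0.71 and 0.71, TCF/LEF, the motif of WNT signalling, 0.80 and 0.84, and the E-box CAGATG, bound by proneural factors such as NEUROD and NEUROG, 0.85 and 0.86. Their reversed controls were at 0.87 and 0.98 for GATA and at 0.87 and 1.10 for TCF/LEF. The CAGATG control was at 0.82 (0.74 to 0.92) without strata, as low as the motif, and 0.96 (0.85 to 1.08) within them.

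Some motifs were more frequent. STAT was in 1.70% against 1.24%, with an odds ratio of 1.38 (1.14 to 1.65) and of 1.54 (1.25 to 1.90) within strata, where its control was at 1.19 (0.89 to 1.58). NFY, a CCAAT-binding factor, was in 4.05% against 3.30%, with odds ratios of 1.24 (1.10 to 1.39) and 1.35 (1.18 to 1.54), and its control was at 1.10 (0.89 to 1.36). NRF1, a factor of GC-rich promoters, was rare, in 0.21% (18 regions) against 0.053%, with odds ratios of 4.04 (2.201 to 7.401) and 2.02 (1.02 to 3.97). The NRF1 control was at 2.80 (0.96 to 8.19) without strata and 1.83 (0.58 to 5.82) within them, close to the motif's value there. KLF/SP was in 6.82% against 3.93%, an odds ratio of 1.79 (1.62 to 1.97) that fell to 1.09 (0.97 to 1.22) within strata. The KLF/SP control was at 1.67 without strata. The neighbours called at E60, E80 and E85 alone had NRF1 in 0.22% and KLF/SP in 6.0%, near the shares of the chosen regions. They had STAT in 0.95% and NFY in 3.51%. For TEAD, POU and SOX the interval held 1 without strata, at odds ratios of 1.02, 1.06 and 1.06, and excluded it within strata. There TEAD, whose factors bind YAP, was at 1.19 (1.07 to 1.32), POU at 1.19 (1.03 to 1.37) and SOX at 1.13 (1.01 to 1.26). The SOX control was at 1.13 (0.95 to 1.34), the same size.

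**Figure D4:**
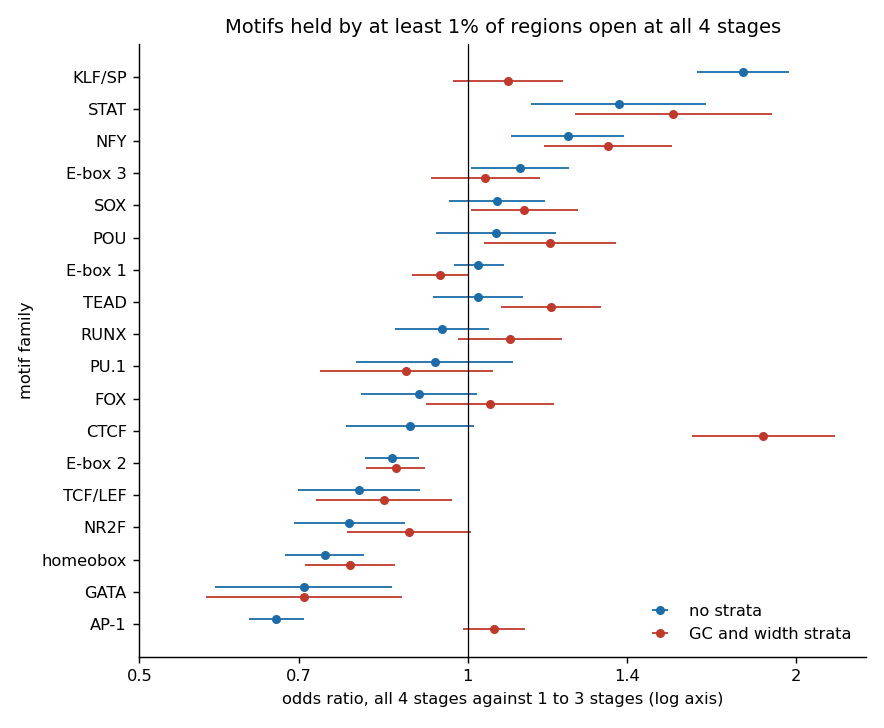
Odds ratio (x axis, log scale) of each motif family (y axis) in distal regions of all 4 stages against those of 1 to 3 stages, without strata (blue) and pooled over strata of GC content and width (red), with 95% intervals, for motifs in at least 1% of the regions of all 4 stages. E-box 1 is CAGCTG, the proneural E-box 2 is CAGATG, and the third kind, E-box 3, is CACGTG. CTCF moves from 0.89 to 1.87 and AP-1 from 0.67 to 1.06, while the homeobox motif stays below 1 at 0.74 and 0.78.

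The regions were spread over many genes. Of 21122 protein-coding loci, each the gene body and the 5000 bp upstream, 3181 (15.1%) held at least 1 of them, and 2251 held exactly 1. They made up 15.4% of the distal regions in all loci. MSI2, the gene of Musashi-2, which binds mRNA in neural progenitors, held the most, 18 of its 64 distal regions, and all 18 were in introns. They spanned chr16:39139546-39538131 and were 334 to 2430 bp wide. Of the 18, 15 held at least 1 lifted peak. CUEDC1, on the same chromosome, held 10 of 16 in a locus of 99255 bp.

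Other leading loci were those of large genes. GSE1 held 13 of 58 distal regions, and the neuron navigator genes NAV2 and NAV1 held 11 of 40 and 9 of 34. PRDM16, a transcription factor gene of radial glia, held 10 of 45. MACF1, which links microtubules to actin, held 9 of 23, and PRKCA, a protein kinase C gene, 9 of 35. GNAO1, a G protein subunit gene, had 8 of 18. SHANK2, a postsynaptic scaffold gene, had 7 of 28 and no promoter call at any stage.

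Among radial glia genes, 8 of 14 loci held a region open throughout, and 18 of their 72 distal regions (25%) were of this kind, against 15.4% over all loci. The list was chosen with results of these data known, and locus size differs between lists, so these shares are descriptions. NOTCH1, the receptor that keeps progenitors undifferentiated, had 4 of 12. SLC1A3, the glial glutamate transporter gene, had 4 of 8, all in introns between chr6:36430111-36482365. GLI3, a transcription factor of hedgehog signalling, had 3 of 20.

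SOX2, the transcription factor gene of neural stem cells, had 3 of 10, and these lay almost end to end. They covered chr2:86975991-86978109, chr2:86978262-86982680 and chr2:86982784-86989778, with widths of 2119, 4419 and 6995 bp. The widest was merged from 2 E50 peaks, 4 E60 peaks, 4 E80 peaks and 3 E85 peaks. NES, which encodes the intermediate filament nestin, had 1 region of 3128 bp over an exon (chr1:94289447-94292574). PAX6, a patterning factor of the dorsal telencephalon, had 1 of 2400 bp that was also a CpG island. SOX9 had 1 in its small locus, but 14 of the regions had SOX9 as the nearest protein-coding start.

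In the outer radial glia list 9 of 10 loci held a chosen region, with 13 of 65 distal regions (20.0%). ITGB5, an integrin gene, had 4 of 14 and FAM107A 2 of 8, while HOPX, TNC and PTPRZ1 had 1 each. The signalling list had 12 of 22 loci and 19 of 97 regions (19.6%). FGFR1, a receptor for the FGF2 in the medium, had 4 of 10, and the BMP receptor gene BMPR1B had 3 of 7. The Notch ligand JAG1 had 2 of 5 and NOTCH2 had 2 of 8. The astrocyte list had 15 of 82 (18.3%), of which NFIX had 6 of 26 and NFIA 4 of 25. Both encode nuclear factor I proteins, which act in the onset of gliogenesis. NFIB had 1 in its locus, and a chosen region of 8723 bp lay 24690 bp from its start (chr15:69243389-69252111).

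Genes of intermediate progenitors had none: 0 of 10 loci and 0 of 9 distal regions, against 15.1% and 15.4% over all protein-coding genes. EOMES, NEUROG1, NEUROG2, NEUROD4 and PPP1R17 had no distal region of any stage in the locus. With regions given to the nearest start instead, 5 of the 10 genes (50%) had at least 1, against 23.8% of all protein-coding genes. INSM1 had 6 of its 26 nearest distal regions and EOMES 2 of 5. The median locus of this list was 8880 bp, against 25878 bp over all genes. Interneuron genes had 1 of 26 (3.85%), at GAD2, and none of the 11 distal regions at GAD1, all of them called at E60, was open throughout. Upper-layer neuron genes had 4 of 54 (7.41%), with 3 at CUX1 and none among 7 at CUX2. Deep-layer genes had 6 of 46 (13.0%), 3 of them at SOX5. Neuron genes had 12 of 104 (11.5%), with MAP2 at 3 of 18.

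The telencephalon list had 4 of 39 distal regions (10.3%). OTX1 and LHX2, homeobox genes of the early forebrain, each had 1, of 2789 bp (chr13:45740814-45743602) and 2713 bp (chr15:16667219-16669931). The 244 homeobox genes by annotated product had 23 of 351 distal regions (6.55%). Cell cycle genes had 3 of 11 (27.3%, the highest share of the 18 lists, from few regions), with 2 at CCND2, a cyclin of cortical progenitors, which were 4496 and 2756 bp wide, and 1 upstream of CCND1. The stress and AP-1 list had 1 of 13 (7.69%), at HSPA1A, although 11 of its 12 genes had a promoter call at all 4 stages.

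The remaining 5 lists held between 6 and 25 distal regions each. The oligodendrocyte lineage had 5 of 25 (20%), with 3 of 7 at CSPG4 and 1 of 3 at PDGFRA, the receptor of oligodendrocyte precursors. Microglia had 1 of 6 (16.7%), at CSF1R, and mesenchyme and mural cells 2 of 10 (20%), both at PDGFRB. Endothelium had 1 of 25 (4.00%), at TEK, and the insulator and cohesin list 1 of 7 (14.3%), at SMC1A. Of these 5 lists, 3 thus had a share above the 15.4% over all loci, 1 of them from a single region.

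**Figure D5:**
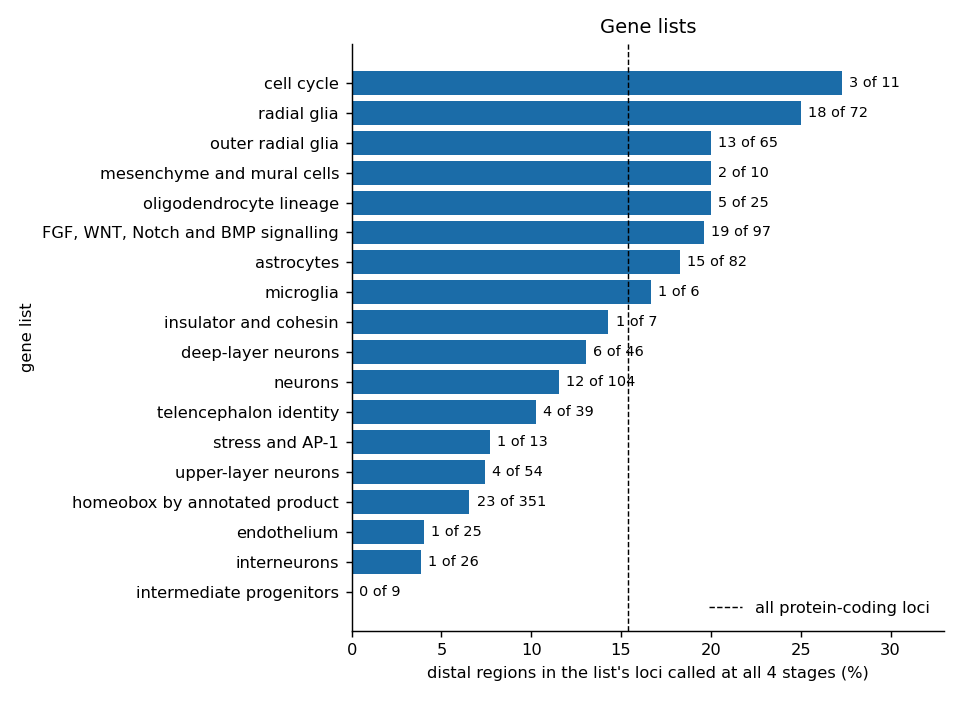
Share of the distal regions in the loci of each gene list (y axis) that were called at all 4 stages (x axis, %), with the counts beside each bar and the share over all protein-coding loci as a dashed line at 15.4%. Radial glia lie at 25%, neurons at 11.5%, interneurons at 3.85% and intermediate progenitors at 0.

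The regions were unevenly spaced. Of 2855 windows of 1 Mb, 2094 held at least 1 and 141 held 10 or more. The fullest, chr1:94000001-95000000, had 26 of its 75 distal regions open throughout and holds NES, the proteoglycan gene BCAN and MEF2D. It contains a region of 11777 bp at C1H1orf61 (chr1:94556967-94568743), merged from 3 E50 peaks, 5 E60 peaks, 5 E80 peaks and 1 E85 peak. Next came chr1:114000001-115000000 with 25 of 65, and chr16:77000001-78000000 with 23 of 98. The MSI2 window, chr16:39000001-40000000, had 19 of 78, and chr15:12000001-13000000 had 18 of 58. At the other extreme, the region on a placed chromosome that was farthest from any start lay 2268131 bp away (chr17:42430692-42431124) and 4 more lay over 1 Mb from any. These 5 were 430 to 614 bp wide, narrower than the median.

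Small RNA genes were overlapped by 65 of the regions (0.77%) and 0.37% of other distal regions, an odds ratio of 2.11 (1.59 to 2.81). Within strata of GC content and width it was 1.07 (0.76 to 1.52), and against distal regions of exactly 3 stages 1.33 (0.901 to 1.964). Genes of tRNA were overlapped by 43 regions (0.51%, against 0.21% of other distal regions) and snRNA genes by 11 (0.13% against 0.015%). Those of miRNA were overlapped by 10 (0.12% against 0.025%), snoRNA genes by 2 (0.024% against 0.038%) and rRNA genes by 0 (against 0.081%). The odds ratio for tRNA genes was 2.46 (1.72 to 3.53), and 1.22 (0.80 to 1.88) within strata of GC content and width. The odds ratio for snRNA genes was 8.81 (3.41 to 22.7), and 2.76 (0.83 to 9.17) within strata of GC content and width. MIR135B lay 1 bp from the centre of a region of 1789 bp in an intron of LEMD1 (chr1:62966576-62968364). The threonine tRNA gene TRNAT-AGU_8 lay 4 bp from the centre of an intergenic region of 1912 bp (chr19:32639789-32641700) that was also a CpG island. Its sequence is shown as an example of an open region that is the start of a gene left out of the rule, with the annotated tRNA in capitals and 20 bases on either side. It holds the internal B box bound by TFIIIC, GTTCGANNC, a motif in 0.62% of the chosen and 0.59% of other distal regions.
TRNAT-AGU_8 region, chr19:32640692-32640805, plus strand: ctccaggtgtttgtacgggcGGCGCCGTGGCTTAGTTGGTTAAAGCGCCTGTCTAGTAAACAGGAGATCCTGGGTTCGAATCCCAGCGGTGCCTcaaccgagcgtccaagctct
A few of the regions, 22 (0.26%), resembled mitochondrial DNA, with at least 20 matches of 25 bases, against 0.087% of other distal regions. The neighbours called at E60, E80 and E85 alone had 0.23%, close to the chosen regions. Reads from mitochondria could have been placed in such regions, which was not tested.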

How the data were processed

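Each of the 4 stages was represented by 1 culture of macaque cortex cells, from which 2 technical ATAC-seq libraries were made, per the labels' protocols. Bowtie2 2.5.1, SAMtools 1.15, cutadapt 4.4 and rheMac10 are named in the submitters' processing notes. For the peak caller, its threshold and any pooling, no statement is given in the sources used here. A table deposited by the authors has 112696 merged regions with the names of the peaks merged into each. Those names carry the stage. Another 8 columns of values have no names and were not used in any step, so depth was not used here and the planned edgeR test of counts was not run. Absence of a call does not show that a region was closed. Regions holding lifted peaks alone (40338) were left out.

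Starts in the table count from 0 and were made 1-based. Sequence and gene models were those of NCBI for Mmul_10, the assembly rheMac10 names. Repeat content was not analysed here, as the genome used does not mark repeats. The promoter and locus rules are given with the results. The regions, gene lists and motifs were chosen with earlier results of these data known, and TLE4 of the lists was not found in the annotation. The named genes are the 20 loci with the most chosen regions, up to 4 genes of each list, the 5 widest and 5 farthest regions on placed chromosomes without mitochondrial-like ones, the 5 fullest windows of 1 Mb, and the small RNA genes nearest a region's centre. Some genes and sequences that this rule takes are not reported here. Other genes and the examples of sequence noted in the text were picked after their values were seen.

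Shares have exact Clopper-Pearson 95% intervals, and odds ratios Woolf intervals, both of which cover counting error alone and treat regions as independent. Pooled odds ratios are Mantel-Haenszel over GC bins of 5% and 6 width classes. A difference is called where the interval excludes 1. The functions were tested on simulated data. Alternatives changed the start window, the stages required, the chromosomes, the widths, the regions compared, the strata and the motif window. The software was pysam 0.24.0, SciPy 1.17.1, pandas 2.3.3 and matplotlib 3.10.9 under Python 3.11.15.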

Additional observations from a re-analysis of the deposited data

How the results depend on the processing

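No paired analysis was possible because the value columns carry no names and the peak sets are 1 per stage. The number of regions, 8429, became 14834 without the E50 culture and 1429 among regions without a lifted peak, and lay within 1.5 times under the other 10 alternatives. The lifted peak odds ratio (4.66) was above 1 under all 16 alternatives, from 1.71 to 5.09. The CTCF odds ratio (0.89) turned above 1 without the E50 culture (1.98) and over the whole region (1.19). It did so too in GC and width strata (1.87) and in width strata alone (2.08), and all of these intervals excluded 1. In regions of at most 1000 bp (1.10) and without lifted peaks (1.12) it was above 1 with intervals that held 1. Its interval excluded 1 on the low side with start windows of 2000 bp (0.861) and 5000 bp (0.856), without E60 (0.767), E80 (0.756) or E85 (0.858), against E60 and E80 alone (0.772), against exactly 3 stages (0.402), in GC strata (0.767) and with a motif window of 100 bp (0.843). AP-1 (0.67) turned above 1 over the whole region (1.08), with an interval that excluded 1, but wider regions hold more letters. Within width strata that whole-region value was 1.02 (0.96 to 1.08). Matches of AP-1 per Mb numbered 480.8 in the chosen regions, 803.7 in other distal regions and 571.5 in the neighbours. Around the centre, the AP-1 odds ratio was 1.03 against exactly 3 stages, 1.06 in GC and width strata and 1.02 in width strata. All of these intervals held 1. The homeobox odds ratio (0.74) was 0.956 against exactly 3 stages, its interval then holding 1, and 1.35 over the whole region, where wider regions hold more letters. The CpG island odds ratio (1.64) was 0.994 against exactly 3 stages and 0.802 in width strata. The intergenic odds ratio (0.98) passed 1 without lifted peaks (1.19), with an interval that excluded 1. It was 1.00 without E50 and 1.01 against E60 and E80 alone, with intervals that held 1. The small RNA odds ratio (2.11) was 0.875 in regions of at most 1000 bp, 1.33 against exactly 3 stages, 1.30 without lifted peaks, and 1.07 in strata of GC and width and of width alone. It had no value with the starts of every annotated gene, which leave no such region. Listed genes with a chosen region in the locus numbered 60, and 98 by nearest start. The width strata alone, save for CpG islands, and the removal of mitochondrial-like regions, which kept all 7 odds ratios on the same side, were chosen after seeing the data. Except where the construction shows it, the cause was not tested. Width is tied to the number of merged peaks, so width strata also condition on something close to the rule.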

Other observations

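The 14 other combinations of stages give a scale for the chosen regions. Distal regions called at E80 alone had the AP-1 motif in 43.7% and the CTCF motif in 1.34%, and those called at E60 alone had 11.6% and 2.11%. The homeobox motif was in 15.9% of the E60-alone regions and 7.16% of the E80-alone regions, and in 7.98% of the regions of all 4 stages. The highest CTCF share of any combination, 7.88%, was that of E60, E80 and E85 without E50. The 4 combinations of 3 stages that lack one stage had 7.88% without E50, 0.62% without E60 (2 of 322), 1.29% without E80 (3 of 232) and 1.10% without E85 (3 of 273).

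Among the chosen regions, gaps between neighbours had a median of 119013 bp, and 11.2% were at most 10000 bp. Among the more numerous regions called at E60 and E80 alone the median gap was 63000 bp, and 14.1% were at most 10000 bp.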
